A study of Bos taurus with 6 samples.

Results

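The genes described here supply amino acids to the cell and load them onto transfer RNA. They are the amino acid carriers of the SLC7 family with their partner SLC3A2, the aminoacyl-tRNA synthetases of the cytosol and of mitochondria, enzymes that make serine, glycine, one-carbon units, proline and cysteine precursors, and ATF4 with TRIB3 and CHAC1, 2 of its targets. Members were taken by gene symbol from the annotation of the array, by a rule that uses no measured value, and the brightest probe set of a gene, by its mean across the 6 arrays, stands for that gene. The rule was written with earlier results of these data known. The shares of all genes given below therefore describe the members and do not test them. This gave 46 of 9155 named genes. ASNS, CTH and the carrier SLC7A11 were not analysed here. Primary endothelial cells were freed from bovine aorta with collagenase and grown in RPMI medium. The basal group received no treatment and the TGFB1 group received 5 ng/ml TGF-beta 1 for 24 hours, with 3 arrays in each group, named basal 1 to 3 and TGFB1 1 to 3 below. The labels speak of 3 different cultures without naming the animals, so the tests measure the spread between these arrays, whatever its source. Expression was read on an Affymetrix bovine array and deposited as log2 values, so a difference of 1 is a doubling.

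A cell draws amino acids through carriers in its membrane or makes them from glucose and glutamine intermediates. Each amino acid is then joined to its transfer RNA by a dedicated synthetase. Many genes of both steps are targets of ATF4, a transcription factor made in larger amounts when amino acids run short or when proteins misfold in the endoplasmic reticulum. In fibroblasts TGF-beta is known to engage ATF4 and the synthesis of serine, glycine and proline. Collagen contains glycine and proline in large amounts. In endothelial cells the same pathways serve growth and nucleotide synthesis.

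The 6 arrays had medians between 5.88 and 5.92 log2 over 24016 probe sets, and their number limits the precision of every value. Treatment was not the only divide among them, since on the first principal component (63.4% of the variance) basal 1 (-67.8), basal 2 (-38.8) and TGFB1 1 (-10.3) lay apart from basal 3 (36.0), TGFB1 2 (39.5) and TGFB1 3 (41.4). These are called the array sets below. Over all probe sets basal 3 correlated at 0.987 with TGFB1 3 and at 0.942 with basal 1. Whether culture, handling or an exchange of labels was the source of this split was not tested. An exchange would alter every difference below that rests on basal 3 or TGFB1 1. Endothelial markers were present, with 7 of 8 above the median of all arrays and KDR below it. The mean level of this marker list ran from 9.23 to 9.69 log2 in basal and from 8.66 to 8.77 in treated arrays. CLDN5 was the 1 marker called, lower. It read 9.93, 9.73 and 8.41 in basal 1, 2 and 3 and 6.14, 5.94 and 6.49 in TGFB1 1, 2 and 3. Of 5 smooth muscle, 4 fibroblast and 4 leukocyte markers none was called, and their mean levels ran from 6.17 to 6.18, 4.26 to 4.31 and 4.77 to 4.98 in basal arrays against 6.13 to 6.20, 4.29 to 4.36 and 4.84 to 5.03 in treated arrays. The part of the endothelial marker difference in the results below was not tested. In RNA from whole cultures, fewer cells of a type and less RNA per cell cannot be told apart.

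None of the 46 genes passed the limma threshold of an adjusted p under 0.05 over all 9155 genes, where 157 genes (1.71%) passed, 51 of them higher (0.557%) and 106 lower (1.16%). The smallest adjusted p among them was 0.0798, that of MTHFD2. At an unadjusted p under 0.05 there were 18 of the 46, with 15 higher and 3 lower after TGF-beta 1, against 17.4% of all genes at that level, 549 higher and 1047 lower. In 23 members the 3 treated arrays lay wholly on one side of the 3 basal arrays, against 23.3% of all genes. Of these 18 lay higher and 5 lower, where the shares of all genes were 8.18% higher and 15.1% lower. The median log2 difference was 0.38 over the members and -0.033 over all genes. It was 0.82 over the 9 synthesis enzymes, 0.86 over ATF4, TRIB3 and CHAC1, 0.57 over 16 cytosolic synthetases, -0.063 over 5 carriers and -0.19 over 13 mitochondrial synthetases. Without TGFB1 1, the array in which many members were highest, the member median was 0.26, and without basal 3 it was 0.28. With 3 arrays against 3, an exact permutation test of 1 gene reaches 0.1 at the lowest.

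**Figure D1:**
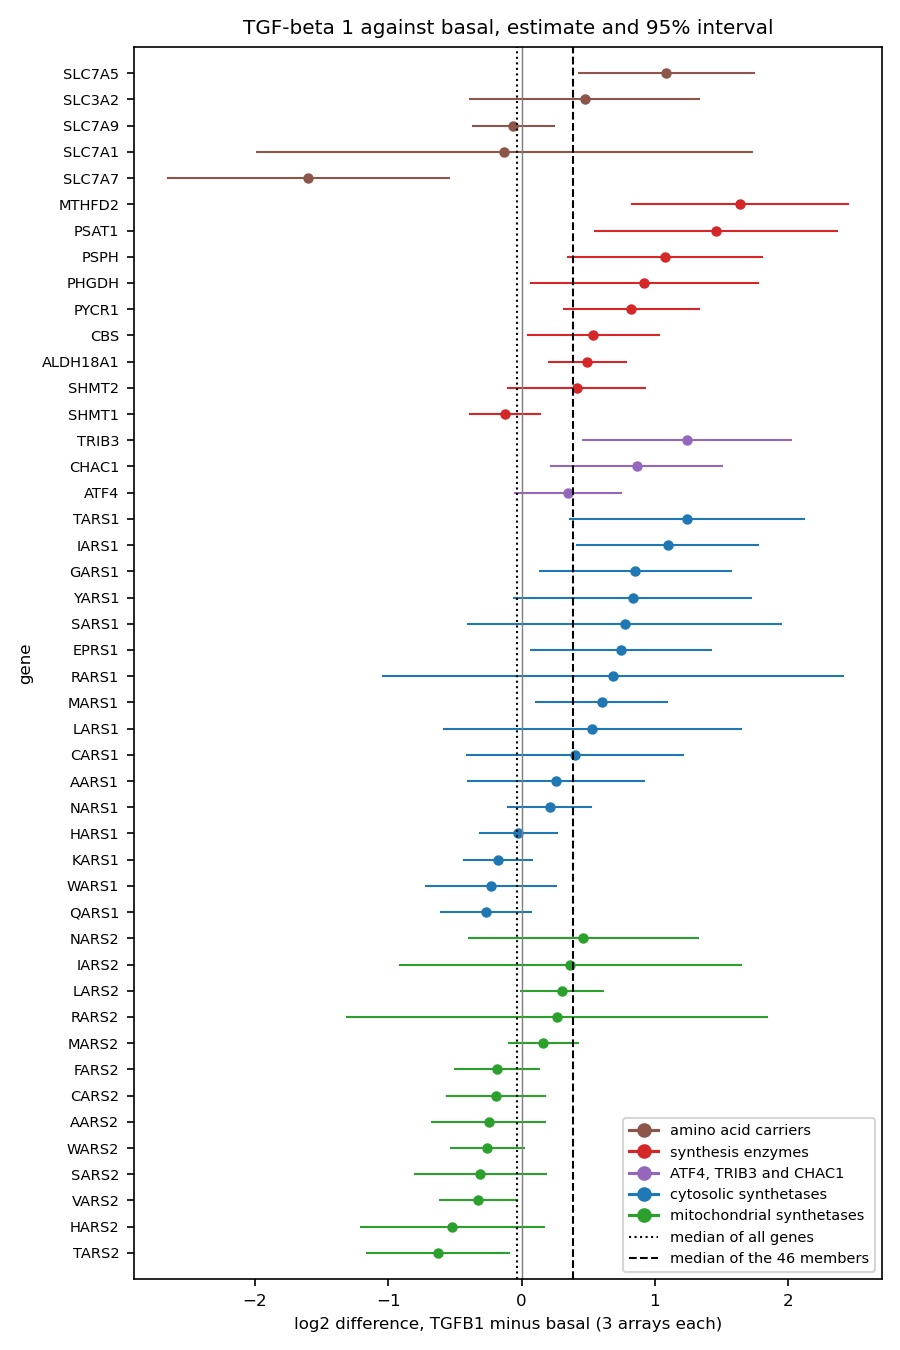
Log2 difference between TGFB1 and basal arrays (horizontal axis, 3 arrays each) for the 46 genes (vertical axis), coloured by role, with points for the estimate and bars for the 95% interval of the limma fit. The synthesis enzymes other than SHMT1 lie to the right of 0 with MTHFD2 farthest at 1.64, the mitochondrial synthetases lie around a median of -0.19, and SLC7A7 lies farthest to the left at -1.60.

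Among the enzymes of one-carbon metabolism MTHFD2 showed the largest difference of all members. MTHFD2 (Entrez gene 517539) is the mitochondrial dehydrogenase and cyclohydrolase that oxidises the methylene group taken from serine. It stood at 6.03, 6.96 and 7.23 log2 in basal 1, 2 and 3 and at 8.67, 8.35 and 8.12 in TGFB1 1, 2 and 3. Every treated array lay above every basal array, and basal 1 was the lowest. The treated mean was 3.11-fold the basal mean (95% interval 1.78 to 5.46, limma adjusted p = 0.0798), short of the threshold. The array carried 3 further probe sets for MTHFD2, which differed by 0.81 to 1.51 log2 in the same direction. SHMT2, the mitochondrial enzyme that passes a carbon from serine to folate, read 9.13, 9.27 and 8.70 in basal arrays and 9.76, 9.38 and 9.20 in treated arrays. TGFB1 3 lay below basal 2, so the groups overlapped, and the difference was 0.41 log2 (SE 0.21, limma adjusted p = 0.390), 0.25 without basal 3 and 0.26 without TGFB1 1. SHMT1, its cytosolic counterpart, was dim, at 5.54 ± 0.11 log2 in basal and 5.41 ± 0.073 in treated arrays (mean ± SD, n = 3 each), below the median of all arrays.

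The serine synthesis pathway starts from a glycolytic intermediate and has 3 enzymes. PHGDH (Entrez gene 505103), the dehydrogenase of the first step, read 9.22, 9.23 and 8.67 log2 in basal 1, 2 and 3 and 10.72, 9.58 and 9.60 in TGFB1 1, 2 and 3. The groups did not overlap, though TGFB1 1 stood more than 1 log2 above the other treated arrays. Its ratio was 1.89-fold (95% interval 1.05 to 3.42, limma adjusted p = 0.252). PSAT1 (Entrez gene 533044), the transaminase of the second step, read 10.12, 10.45 and 9.27 in basal and 11.97, 11.13 and 11.11 in treated arrays. Here too all treated arrays were above all basal arrays, with TGFB1 1 the highest and basal 3 the lowest. The ratio of PSAT1 was 2.74-fold (1.46 to 5.15, limma adjusted p = 0.121), and its 2 other probe sets gave 1.54 and 1.69 log2 against 1.46 for the one used. PSPH, the phosphatase that completes serine, stood at 9.66 ± 0.46 log2 in basal and 10.74 ± 0.40 in treated arrays, 2.11-fold (1.27 to 3.49, limma adjusted p = 0.140), without overlap, and its other probe set gave 1.32 log2.

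Both members that make proline from glutamate also lay higher in every treated array than in any basal array. ALDH18A1 (Entrez gene 514759), which reduces glutamate, read 10.58, 10.28 and 10.53 log2 in basal and 10.96, 10.98 and 10.93 in treated arrays. Its treated arrays were nearly level, unlike those of the serine enzymes, with an SD of 0.027 log2. The ratio was 1.41-fold (1.15 to 1.72, limma adjusted p = 0.104). PYCR1 (Entrez gene 539606), the mitochondrial reductase that closes the pathway, read 8.06, 8.52 and 8.03 in basal and 9.35, 8.95 and 8.78 in treated arrays, a ratio of 1.77 (1.25 to 2.51, limma adjusted p = 0.116). CBS, which joins homocysteine to serine on the way to cysteine, stood at 7.18 ± 0.16 and 7.72 ± 0.35 log2, also without overlap (1.45-fold, 1.03 to 2.04, limma adjusted p = 0.245). Of the 9 synthesis enzymes 7 therefore had separate groups, all with the treated arrays higher (8.18% of all genes), and none passed the threshold. The groups of CBS were apart by only 0.068 log2. TGFB1 1 was the highest array in 7 of the 9 (19.7% of all genes).

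**Figure D2:**
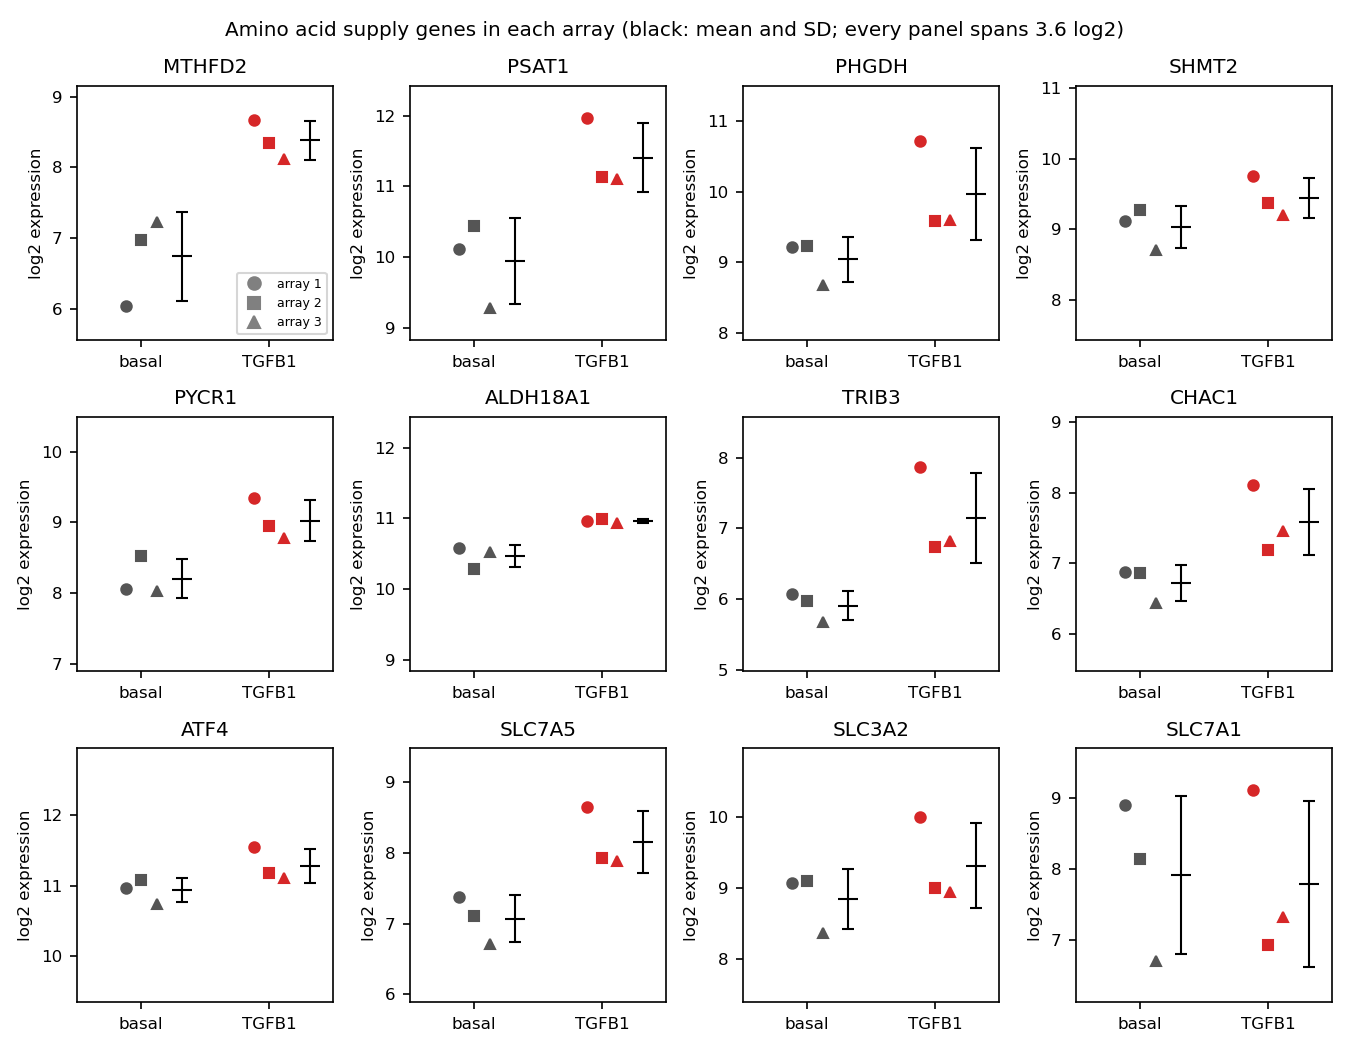
Log2 expression (vertical axes, each spanning 3.6 log2) of 12 genes in basal and TGFB1 arrays, with marker shapes for array 1, 2 and 3 of a group and black bars for mean and SD (n = 3). MTHFD2, PSAT1 and PHGDH show separate groups with TGFB1 1 on top, ALDH18A1 shows treated arrays at nearly 1 level, and SLC7A1 shows basal 1 and TGFB1 1 high and basal 3 and TGFB1 2 low.

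ATF4 had a smaller difference than TRIB3 and CHAC1, 2 of its targets, though ATF4 was not tested against them. ATF4 (Entrez gene 509107) read 10.97, 11.08 and 10.75 log2 in basal 1, 2 and 3 and 11.55, 11.18 and 11.10 in TGFB1 1, 2 and 3. The groups were apart by only 0.027 log2, between basal 2 and TGFB1 3. The ratio was 1.27 (0.966 to 1.68, limma adjusted p = 0.348). ATF4 is controlled largely at translation, which an RNA array does not read. TRIB3 (Entrez gene 538465), a pseudokinase that feeds back on ATF4, read 6.07, 5.97 and 5.68 in basal and 7.87, 6.74 and 6.82 in treated arrays. TGFB1 1 lay more than 1 log2 above the other treated arrays, which still exceeded every basal array. TRIB3 had a ratio of 2.36 (1.37 to 4.06, limma adjusted p = 0.125). CHAC1 (Entrez gene 505991), which breaks down glutathione, read 6.87, 6.87 and 6.43 in basal and 8.11, 7.20 and 7.46 in treated arrays on a probe set whose type (_s_at) can match transcripts of more than 1 gene. Its ratio was 1.82 (1.17 to 2.84, limma adjusted p = 0.168). A second, dimmer probe set of CHAC1 gave 0.42 log2 in the same direction.

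Among the carriers, SLC7A5 and SLC7A7 lay on opposite sides. SLC7A5 (Entrez gene 282369), the LAT1 carrier that exchanges large neutral amino acids such as leucine, read 7.38, 7.12 and 6.72 log2 in basal and 8.66, 7.93 and 7.89 in treated arrays, without overlap. That is a 2.12-fold ratio (1.35 to 3.35, limma adjusted p = 0.113). SLC3A2 (Entrez gene 507107) is the heavy chain that brings SLC7A5, SLC7A7 and other carriers to the membrane. It read 9.08, 9.10 and 8.36 in basal and 10.01, 9.01 and 8.94 in treated arrays, so that TGFB1 2 and TGFB1 3 lay within the basal range and TGFB1 1 stood alone above it. The difference was 0.47 log2 (SE 0.35, limma adjusted p = 0.563), 0.23 without basal 3 and 0.13 without TGFB1 1. SLC7A7 (Entrez gene 504220), the y+LAT1 carrier that exports cationic amino acids, read 7.46, 7.28 and 5.82 in basal and 5.33, 5.33 and 5.11 in treated arrays. All treated arrays were lower, and basal 3 stood more than 1 log2 below the other basal arrays. The basal mean was 3.03-fold the treated mean (1.46 to 6.28, limma adjusted p = 0.133), and the treated mean of 5.26 ± 0.13 log2 (SD, n = 3) lay below the median of all arrays. SLC7A1 (Entrez gene 539465), the CAT1 carrier that brings arginine into endothelial cells, read 8.91, 8.14 and 6.70 in basal and 9.13, 6.92 and 7.33 in treated arrays. Its range within either group exceeded 2 log2, and the difference of -0.13 (95% interval -1.98 to 1.73) turned positive without basal 1, TGFB1 2 or TGFB1 3. SLC7A9, a carrier of kidney and gut, was below the 25th percentile of the arrays in both groups.

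The cytosolic synthetases were not uniform. A positive difference was found in 12 of 16 (44.4% of all genes), 6 had treated arrays wholly above basal arrays (8.18%) and KARS1 alone lay wholly lower (15.1%). TARS1 (Entrez gene 510075), which charges threonine, read 9.20, 9.40 and 10.58 log2 in basal 1, 2 and 3 and 10.95, 10.94 and 11.01 in TGFB1 1, 2 and 3. The treated arrays were nearly level and basal 3 came within 0.36 of them. The ratio of TARS1 was 2.36-fold (1.29 to 4.34, limma adjusted p = 0.153). IARS1 (Entrez gene 509885), for isoleucine, read 9.86, 9.32 and 10.43 in basal and 11.10, 10.88 and 10.92 in treated arrays, with a ratio of 2.14 (1.33 to 3.42, limma adjusted p = 0.119). MARS1 (Entrez gene 512531), for methionine, read 8.53, 8.47 and 8.39 in basal and 9.49, 8.92 and 8.78 in treated arrays. Its basal arrays were close together and TGFB1 1 led the treated ones, for a ratio of 1.52 (1.08 to 2.13, limma adjusted p = 0.204).

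The glycine and tyrosine enzymes GARS1 and YARS1 stood at 10.66 ± 0.27 and 8.89 ± 0.53 log2 in basal and at 11.52 ± 0.54 and 9.72 ± 0.54 in treated arrays, 1.81-fold (1.10 to 2.97) and 1.78-fold (0.963 to 3.29), both without overlap. The groups of GARS1 were apart by 0.20 log2 and those of YARS1 by only 0.027. NARS1, for asparagine, also had separate groups, apart by only 0.022 log2, at a small difference of 0.21 log2 (SE 0.13). EPRS1, the joint enzyme for glutamate and proline, stood at 9.86 ± 0.49 and 10.61 ± 0.28, 1.67-fold (1.05 to 2.67), with TGFB1 1 inside the basal range. The serine enzyme SARS1 read 9.85, 10.02 and 9.06 in basal and 11.43, 9.98 and 9.84 in treated arrays, a difference of 0.77 (SE 0.48). TGFB1 1 lay above all basal arrays, while TGFB1 2 and TGFB1 3 lay among them. AARS1 and CARS1, for alanine and cysteine, likewise had TGFB1 1 above and the other treated arrays within the basal range, with differences of 0.26 (SE 0.27) and 0.40 (SE 0.33). RARS1 and LARS1, for arginine and leucine, were instead high in basal 3, TGFB1 2 and TGFB1 3: RARS1 read 8.12, 7.83 and 10.04 in basal and 8.29, 9.89 and 9.87 in treated arrays. These members were picked out for their order of arrays after the values were seen. On the other side of 0 lay QARS1 (-0.26, SE 0.14), WARS1 (-0.23, SE 0.20), KARS1 (-0.18, SE 0.10) and HARS1 (-0.023, SE 0.12), which charge glutamine, tryptophan, lysine and histidine. WARS1 has 3 other probe sets, and 1 of them had the opposite sign, at 0.48 (SE 0.52). GARS1 and KARS1 each encode the enzyme of the cytosol and that of mitochondria. Limma adjusted p for the 16 genes ran from 0.119 to 0.948.

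**Figure D3:**
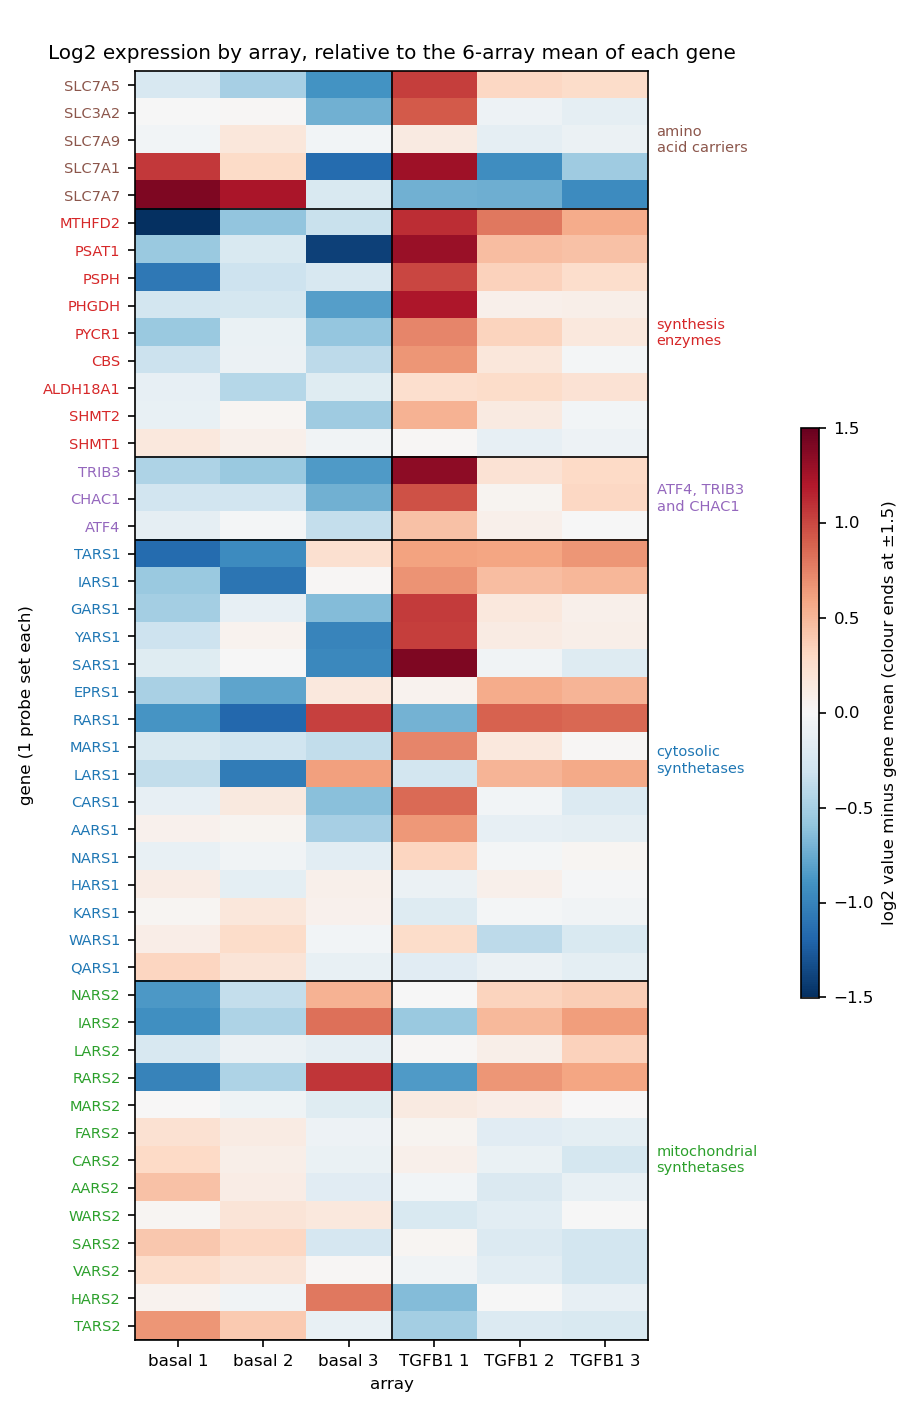
Heat map of the 46 genes (rows, grouped by role) over the 6 arrays (columns), coloured by log2 value minus the gene's mean over the arrays, with colours ending at ±1.5. Most synthesis enzymes, TRIB3, CHAC1 and several cytosolic synthetases are reddest in TGFB1 1, while RARS1, LARS1, IARS2, NARS2 and RARS2 are red in basal 3, TGFB1 2 and TGFB1 3.

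The mitochondrial synthetases, which serve translation of the proteins encoded in mitochondrial DNA, lay near the shares of all genes. Of 13 genes 8 had a negative difference, where 5087 of all 9155 genes did. In 3 the treated arrays were wholly lower (15.1% of all genes) and in 1 wholly higher (8.18%). TARS2 (Entrez gene 511740), for threonine, read 7.21, 6.93 and 6.43 log2 in basal and 6.03, 6.34 and 6.32 in treated arrays, a basal to treated ratio of 1.54 (1.07 to 2.24, limma adjusted p = 0.217). Its other, dimmer probe set gave 0.011 log2, and the mean of both -0.31. VARS2 (Entrez gene 100847824), for valine, read 6.99, 6.92 and 6.75 in basal and 6.67, 6.57 and 6.45 in treated arrays, lower by 1.25-fold (1.03 to 1.53, limma adjusted p = 0.235). WARS2 was the third gene with all treated arrays lower, at -0.26 log2 (SE 0.11). LARS2 (Entrez gene 504609), for leucine, was the one gene with all treated arrays higher, at 3.87, 4.03 and 3.98 in basal and 4.13, 4.20 and 4.45 in treated arrays. All of these values lay below the 25th percentile of the arrays, so they were not shown to be above background. HARS2 stood at 7.49 ± 0.46 and 6.97 ± 0.35, a difference of -0.52 (SE 0.28), with basal 3 the highest and TGFB1 1 the lowest array. SARS2, AARS2, CARS2 and FARS2 lay between -0.31 and -0.18 and MARS2 at 0.16. IARS2, NARS2 and RARS2 had differences of 0.37, 0.46 and 0.27 with SE of 0.53, 0.35 and 0.65, and all were highest in basal 3. Limma adjusted p for the 13 genes ran from 0.217 to 0.876.

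For 11 amino acids both the cytosolic and the mitochondrial enzyme were measured, which allowed a comparison within each array, added after the data were seen. The log2 difference between the cytosolic and the mitochondrial probe set of a pair depends on the probes, so only its shift between groups was read. It shifted upward, toward the cytosolic enzyme, in 10 of 11 pairs, by a median of 0.50 log2. For threonine it was 1.99, 2.47 and 4.15 in basal 1, 2 and 3 and 4.92, 4.61 and 4.69 in TGFB1 1, 2 and 3, a shift of 1.87. The serine pair read 2.12, 2.38 and 1.98 in basal and 4.07, 2.87 and 2.80 in treated arrays, a shift of 1.08, though SARS1 by itself overlapped between groups. Treated arrays lay wholly above basal arrays in 7 pairs, those for threonine, serine, cysteine, alanine, histidine, methionine and arginine, and in no pair wholly below. Several separations were narrow. The highest basal and lowest treated values were 0.424 and 0.426 for cysteine, 1.49 and 1.51 for histidine, 2.20 and 2.22 for arginine, and 3.98 and 4.03 for alanine. They were 1.73 and 1.93 for methionine. The share of separate groups among other gene pairs was not computed. The isoleucine, leucine, tryptophan and asparagine pairs overlapped, and asparagine shifted the other way (-0.25). In the leucine pair LARS2 lay below the 25th percentile of the arrays. A filter on mean expression at the 25th percentile left 10 pairs, of which 9 shifted upward. In the 7 separate pairs the two-sided exact permutation p was 0.1, the smallest that 3 arrays against 3 can give, and 0.157 after Benjamini-Hochberg adjustment over the 11 pairs, so no pair could pass this test at 3 arrays a group.

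**Figure D4:**
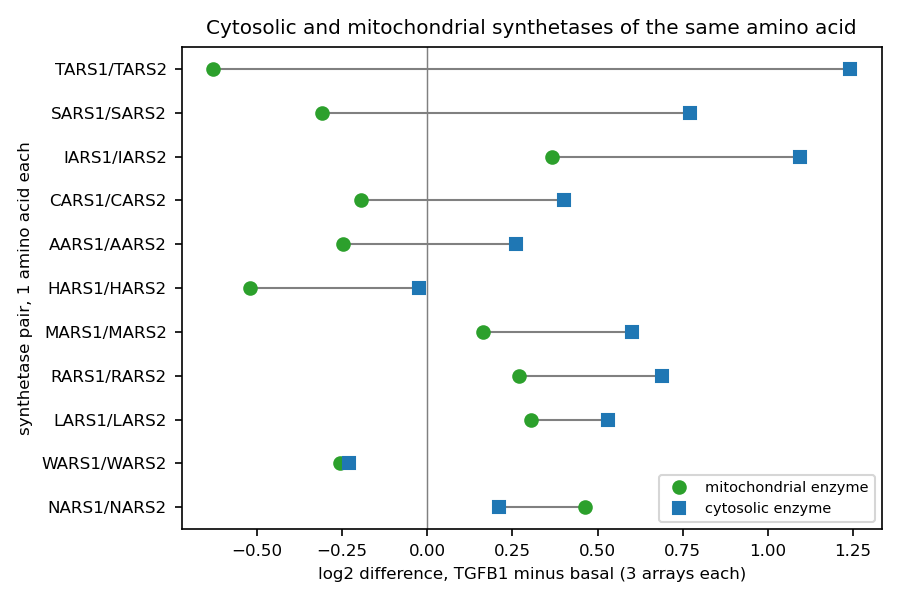
Log2 difference between TGFB1 and basal arrays (horizontal axis) for the cytosolic enzyme (blue squares) and the mitochondrial enzyme (green circles) of 11 amino acids (vertical axis), joined by a line. The cytosolic enzyme lies to the right in 10 of 11 pairs, with the widest gap for threonine at 1.87.

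The order of the arrays recurred across members. Without TGFB1 1 the differences of PHGDH, MARS1 and ATF4 were 0.54, 0.39 and 0.21 log2 against 0.92, 0.60 and 0.35 with it. In 23 of the 46 genes TGFB1 1 was the highest of the 6 arrays, which held for 19.7% of all genes. In 19 of them basal 3 was also the lowest array, against 9.20% of all genes. Among these 19 were PSAT1, PHGDH, SHMT2, PYCR1, CBS, ATF4, TRIB3, CHAC1, SLC7A5, SLC3A2 and SLC7A1. TGFB1 1 and basal 3 lie in different array sets, so differences were also read within each set: TGFB1 1 against the mean of basal 1 and basal 2, and the mean of TGFB1 2 and TGFB1 3 against basal 3. Both differences were positive in 26 members and both negative in 11, where all genes gave 29.2% and 35.2%. The median of the members was 0.53 log2 in the first set and 0.36 in the second. PSAT1 differed by 1.68 and 1.85, SLC7A5 by 1.41 and 1.19 and YARS1 by 1.17 and 1.10, alike in both sets. MTHFD2, PSPH, TARS1 and IARS1 differed more in the first set, by 2.17, 1.69, 1.66 and 1.51 against 1.01, 0.54, 0.39 and 0.47 in the second. The difference between the sets was not tested.

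A limma fit with the array sets as a block gave 17 members past the threshold as higher (4.01% of all genes) and 2 as lower (5.57%). The sets were defined after the data were seen, from the same expression values, and 1 set holds a single treated array and the other a single basal array. The block takes out spread that the sets were chosen to capture, with 877 calls over all genes against 157, so its calls are a description and no test. The 17 were PSAT1, PHGDH, SHMT2, MTHFD2, PYCR1, CBS, ATF4, TRIB3, CHAC1, SLC7A5, SLC3A2, GARS1, YARS1, SARS1, MARS1, CARS1 and AARS1, and the 2 were SLC7A7 and HARS2. Leaving out basal 3 gave another selection: IARS1, TARS1, EPRS1, NARS2, MTHFD2 and ALDH18A1 passed as higher (5.69% of all genes) and SLC7A7 and TARS2 as lower (11.1%). Without basal 3 no basal array remains in the set of TGFB1 2 and TGFB1 3, so treatment and array set are mixed there. MTHFD2 and SLC7A7 were past the threshold in both fits. Leaving out any of the other 5 arrays gave no call among the members by limma. Those fits called only 0 to 8 of all 9155 genes, so the lack of calls is not particular to the members. At an unadjusted p under 0.05 there were 11 to 15 members higher and 1 to 3 lower, beside 1009 to 1358 of all 9155 genes in either direction.

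**Figure D5:**
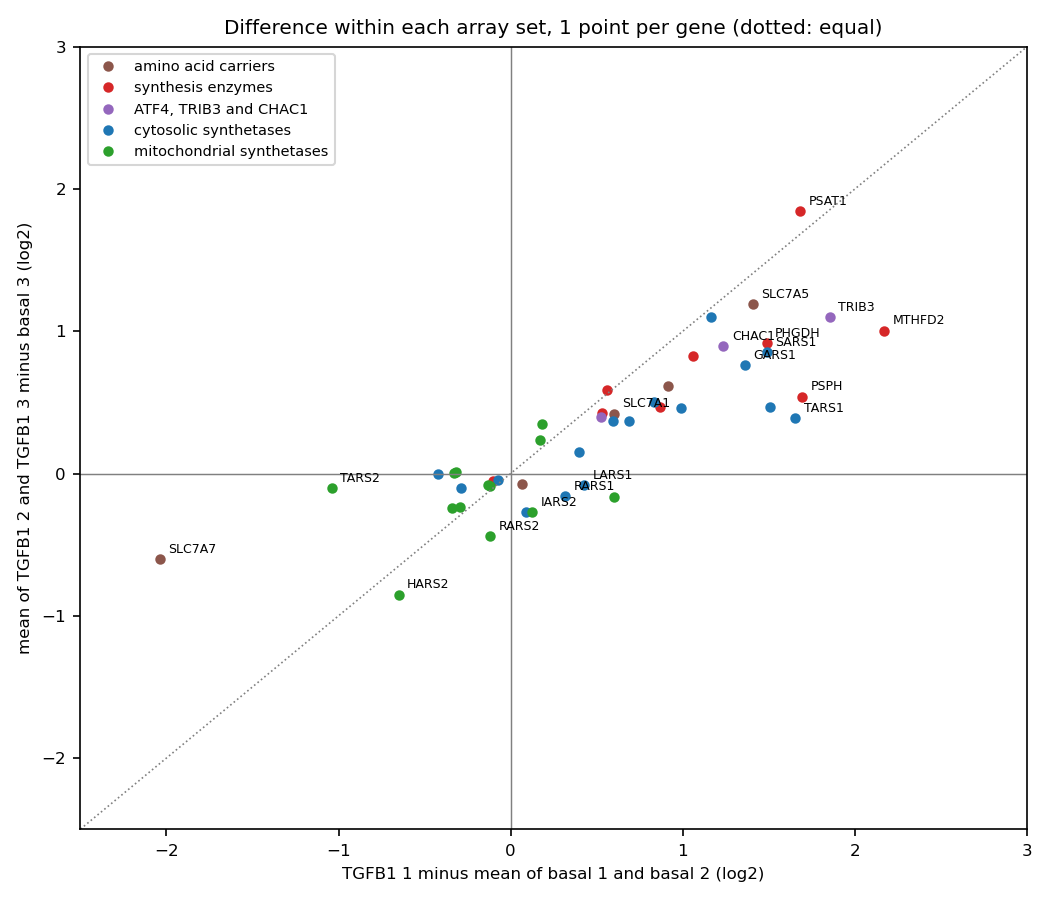
Difference of TGFB1 1 from the mean of basal 1 and basal 2 (horizontal axis, log2) against the difference of the mean of TGFB1 2 and TGFB1 3 from basal 3 (vertical axis, log2), 1 point per gene, coloured by role, with a dotted line of equality. PSAT1 lies near the line at 1.68 and 1.85, MTHFD2 and TARS1 lie below it, and SLC7A7 lies at -2.04 and -0.60.

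Genes of the same pathways outside the members gave 3 calls, where 1.71% of all genes were called. Of 17 measured genes of the integrated stress response, the signalling that raises ATF4, 2 rose (0.557% of all genes) and none fell (1.16%). DDIT4, an inhibitor of the growth regulator mTORC1 that ATF4 can induce, read 10.54, 10.37 and 10.19 log2 in basal and 11.89, 11.70 and 11.75 in treated arrays. It rose 2.67-fold (2.14 to 3.32, limma adjusted p = 0.0226), and its treated arrays were nearly level. EIF2AK2, the kinase PKR that senses double-stranded RNA, read 5.53, 5.32 and 5.76 in basal and 6.62, 6.50 and 7.03 in treated arrays and rose 2.27-fold (1.66 to 3.12, limma adjusted p = 0.0464). Its basal values lay below the median of all arrays. ATF3 differed by 0.82 (SE 0.19, limma adjusted p = 0.105) without overlap, and DDIT3, the ATF4 partner CHOP, by 0.019 (SE 0.23). The median of the list was 0.044.

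Of 21 genes of neighbouring amino acid metabolism 1 fell (1.16% of all genes) and none rose (0.557%), with a median of -0.035. ASL, which makes arginine from argininosuccinate, read 8.12, 7.87 and 7.63 log2 in basal and 6.53, 6.81 and 6.74 in treated arrays, and it fell 2.27-fold (1.73 to 2.97, limma adjusted p = 0.0371). BCAT1, the cytosolic transaminase of branched-chain amino acids, read 4.78, 4.73 and 4.46 in basal and 7.12, 5.93 and 5.91 in treated arrays, 3.18-fold higher (1.78 to 5.67, limma adjusted p = 0.0826), from basal values below the median of all arrays. MTHFD1L, the mitochondrial enzyme after MTHFD2 in formate production, read 9.31, 9.28 and 9.30 in basal and 10.33, 9.83 and 9.88 in treated arrays, 1.64-fold (1.26 to 2.14, limma adjusted p = 0.0892). The calls of DDIT4, EIF2AK2 and ASL each ended when any 1 array other than basal 3 was left out and with the replicate number as a block (limma adjusted p = 0.0672, 0.0672 and 0.0902). Over all alternatives the limma adjusted p ran from 0.00274 to 0.169 for DDIT4, 0.0154 to 0.417 for EIF2AK2 and 0.00911 to 0.192 for ASL. With the mean of all probe sets of a gene, EIF2AK2 stood at 0.61 log2 and ASL at -0.53, and neither was called.

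The other lists held no call by limma. Among 14 other amino acid carriers 2 had an unadjusted p under 0.05 (17.4% of all genes). SLC1A4, a carrier of serine and alanine, read 7.66, 7.52 and 6.66 in basal and 9.34, 8.02 and 7.87 in treated arrays, with TGFB1 1 the highest and basal 3 the lowest array, a difference of 1.13 (SE 0.46). SLC38A7 stood at -0.43 (SE 0.16) and SLC1A1 at -0.27 (SE 0.12). Of 8 synthetase partners and elongation factors 1 had an unadjusted p under 0.05: EEF1E1, a scaffold protein of the synthetase complex, read 8.72, 9.20 and 9.69 in basal and 10.82, 10.23 and 10.00 in treated arrays, a difference of 1.15 (SE 0.31, limma adjusted p = 0.135). AIMP2, another scaffold of that complex, stood at -0.32 (SE 0.17) and EEF1G at -0.14 (SE 0.11). Of 15 genes of amino acid sensing by mTORC1, 14 had a negative difference (5087 of all 9155 genes did). Wholly lower in treated arrays lay 6 (15.1% of all genes), and 5 were lower at an unadjusted p under 0.05 (11.4%). The list holds subunits of mTORC1 itself (RPTOR, MLST8) and genes that promote or restrain the signal, so a shared sign gives no direction of signalling. The list median was -0.33, against -0.033 over all genes. RRAGB, a Rag GTPase, read 6.47, 6.58 and 6.74 in basal and 5.87, 5.74 and 6.03 in treated arrays, a difference of -0.71 (SE 0.13, limma adjusted p = 0.0620). The Rag GTPase RRAGD stood at -0.55 (SE 0.16), with a mean below the 25th percentile of the arrays, and NPRL2, a subunit of the complex that restrains the Rag GTPases, at -0.46 (SE 0.16).

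Of the 46 members 12 had more than 1 probe set. The 18 further probe sets shared the sign of the one used in 15 cases. The 3 others belonged to CARS2, TARS2 and WARS1, and none of them differed at an unadjusted p under 0.05. No further probe set passed the limma threshold over all probe sets, where only 158 of 24016 passed. They come from the same 6 arrays, so they repeat the comparison with other probes and add no replicate.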

How the data were processed

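Expression was measured on 6 Affymetrix arrays of bovine aortic endothelial cells. The submitters' processing notes name RMA and affy, without versions, and the deposited values are log2 expression per probe set. RMA compresses changes near background and gives no detection call. Arrays were matched to groups by the labels, and 0 columns were unused.

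The 112 AFFX controls were left out of 24128 probe sets. Of the other 24016 the annotation gave 1 symbol for 13292, several for 86 (not named) and none for 10638. Each of 9155 genes was read from its brightest probe set by mean level, with no filter on dim genes. All 46 members matched RefSeq (ARS-UCD2.0) by gene identifier. No coordinates or sequences are given, because the annotation names no build.

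The main test was that of limma 3.58.1, run in R 4.3.3 with lmFit and eBayes (group as the only term, 4 residual and 2.14 prior degrees of freedom), two-sided, with Benjamini-Hochberg adjustment over all genes and a threshold of 0.05. Intervals are 95% intervals of that fit, and a fold is the power of 2 of the log2 difference. The fit was also run on simulated data with independent noise in each gene and array. These held no array sets, so that run does not test how the fit behaves under such a split. Synthetase pairs were compared by an exact permutation test. The alternatives tried were leaving out each array, the replicate number as a block, 2 filters on mean expression (25th percentile, median), limma-trend, robust eBayes, array medians set equal, quantile normalization run once more, the mean of all probe sets of a gene, a fit over all probe sets, and thresholds of 0.1 and 0.01. The block of array sets and the synthetase pairs were added after the data were seen. Figures were drawn with matplotlib 3.10.9.

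The members and lists were chosen with earlier results of these data known. All members may be named. Values of each array are given for members past the threshold, for a set of 12 named genes, and for the 3 members of each role with the smallest unadjusted p, which made 19, and from each other list the 3 genes with the smallest unadjusted p and those past the threshold. The plan for the named genes also held ASNS and SLC7A11, which were not analysed. Array values of SARS1 and RARS1 and the mention of DDIT3 were chosen after the values were seen.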

Additional observations from a re-analysis of the deposited data

How the results depend on the processing

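No member was called in either direction under 15 of the 18 alternatives, by limma (a filter at the 25th percentile left 43 members and one at the median 35). Several of these 15 called few genes at all. The replicate block and the threshold of 0.01 called 0 of 9155, and the fits without an array other than basal 3 called 0 to 8. The median member difference stayed positive under all 18, from 0.26 to 0.49 log2. A threshold of 0.1 gave 1 member higher (MTHFD2) and none lower. The block of array sets gave 17 higher and 2 lower. Leaving out an array gave 0 to 6 members higher and 0 to 2 lower, with the calls only without basal 3. Of all genes, 99 were called with limma-trend, 0 with the replicate block (2038 at an unadjusted p under 0.05), 429 at a threshold of 0.1, 0 at 0.01 (1596), 877 with the block of array sets, and 0 to 1537 without 1 array, with 0 without basal 2 (1009) or TGFB1 2 (1045) and 1537 without basal 3. The fit over all probe sets called 158 of 24016, 73 higher and 85 lower, against 51 and 106 genes. Replicate numbers were not taken as pairs, because the labels do not state a pairing and not every number's arrays deviated together. Deviations from the group means correlated at 0.67, -0.45 and 0.69 for numbers 1, 2 and 3, and 4 of 6 arrays correlated best with their own number, so a pairing of some numbers is possible. With the replicate block 17 members were higher and 3 lower at an unadjusted p under 0.05 and 0 passed.

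The integrated stress response list had 1 call (DDIT4) among genes above the median, with the mean of all probe sets and in the fit over all probe sets, 0 with the replicate block or at 0.01, and 0 to 5 without 1 array. The neighbouring metabolism list had 0 calls with the replicate block, with the mean of all probe sets and at 0.01, 3 at 0.1, 4 with the block of array sets, and 0 to 6 without 1 array. Other carriers had 3 calls with the block of array sets and 0 to 1 without 1 array, and synthetase partners 0 to 1 without 1 array. The mTORC1 sensing list had 1 at 0.1, 1 with the block of array sets and 0 to 5 without 1 array. In every list the calls without 1 array came only from leaving out basal 3. Of all 9155 genes 429 were called at 0.1, 877 with the block of array sets and 1537 without basal 3. Synthetase pairs with the larger cytosolic difference numbered 4 of the 5 left above the median of expression, and 9 to 11 of 11 without 1 array. Of the 19 genes given by array, SLC7A1 alone changed sign, to 0.51 with the block of array sets and from -0.80 to 0.37 without 1 array. The causes were not tested. SLC7A9 and LARS2 lay below the 25th percentile of the arrays and SHMT1 below the median, where RMA values respond little.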
